A study of Mus musculus with 4 samples.

Results

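Lyve1 was studied here with 9 other genes of liver sinusoidal endothelium: Stab1, Stab2, Clec4g, Pecam1, Kdr, Tek, Cdh5, Mrc1 and Fcgr2b. The 10 genes were taken by name, out of 12393 genes with a signal, and every probe set annotated to them was read, 16 in all. The set was chosen by the values described below, since an earlier look at these arrays had shown that the sign of the change in the 9 genes went with the control array used while Lyve1 was higher in starved liver. The levels and differences of the 10 genes are therefore given as a description, with no test. Total liver RNA came from 2 mice starved for 24 h and 2 control mice that were not starved. All 4 were wild-type, C57/BL6 in background and aged 1 month, and each liver was hybridised to 1 Affymetrix array. A further label field sets injected against not-injected mice, with the starved mice as the injected ones, and which agent was meant was not settled. The labels call the mice of a group biological replicates and do not give their sex.

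The sinusoids of the liver are lined by a fenestrated endothelium without a continuous basement membrane. These cells are known as scavengers: they take up hyaluronan, collagen fragments, denatured proteins and small immune complexes from the blood through a set of endocytic receptors. Lyve1 is a receptor for hyaluronan that was first known from lymphatic vessels and is also a marker of sinusoidal endothelium. Most of the genes below are not restricted to these cells: Stab1, Mrc1 and Fcgr2b are also made by macrophages, and Pecam1, Kdr, Tek and Cdh5 by endothelium elsewhere. A bulk sample cannot tell fewer cells of a type from less RNA per cell.

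Values are log2 signals from robust multi-array averaging (RMA), so a difference of 1 is a doubling. Unless a probe set is named, a gene is given by its brightest probe set. Changes are differences of group means, starved livers minus control livers. The tissue label was checked with 8 hepatocyte markers, whose median signal was 14.5 and 14.3 in starved livers, against 14.5 and 14.5 in control livers. The control arrays stood apart from each other in some groups of genes. Over all genes they did not: the median size of the gap was 0.15 between control arrays and 0.14 between starved arrays. Acute phase genes, which the liver makes during inflammation, were brighter on control 2: the median deviation of 26 of them from their own mean was -0.31 and -0.23 on the starved arrays, -0.07 on control 1 and 0.52 on control 2. The changes of the 10 genes and the medians of gene groups are therefore also given against control 1 and control 2 alone. The actin control probe sets at the 3′ end exceeded those at the 5′ end, a measure of RNA integrity, by 2.06 and 1.85 on the starved arrays, against 1.79 and 1.76 on the control arrays, and its part in the results was not tested.

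Lyve1 was higher in starved liver whichever array was used. Its signal was 8.89 and 8.02 in starved livers, against 6.64 and 6.64 in control livers. Both starved arrays lay above both control arrays, the difference between control 1 and control 2 was -0.0093, and the starved arrays differed from each other by 0.87. The means were 8.45 ± 0.61 in starved livers and 6.64 ± 0.0066 in control livers (SD, n = 2 each), a change of 1.81 or 3.52-fold. Each starved array against each control array gave differences of 1.38 to 2.25, or 2.59-fold to 4.77-fold. Of all 12393 genes, 12 had a change at or above that of Lyve1, which is among the 12. The change was 1.82 against control 1 and 1.81 against control 2, the same to within 0.01. It was 1.38 with starved 2 as the only starved array and 2.25 with starved 1.

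The other Lyve1 probe set gave a smaller change in the same direction. Its signal was 7.16 and 6.71 in starved livers, against 5.85 and 5.85 in control livers, a change of 1.09. Starved 1 was again the higher of the starved arrays. The platform annotation derives both Lyve1 probe sets from the same sequence record, so they are repeat readings of a single gene and not independent evidence.

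**Figure D1:**
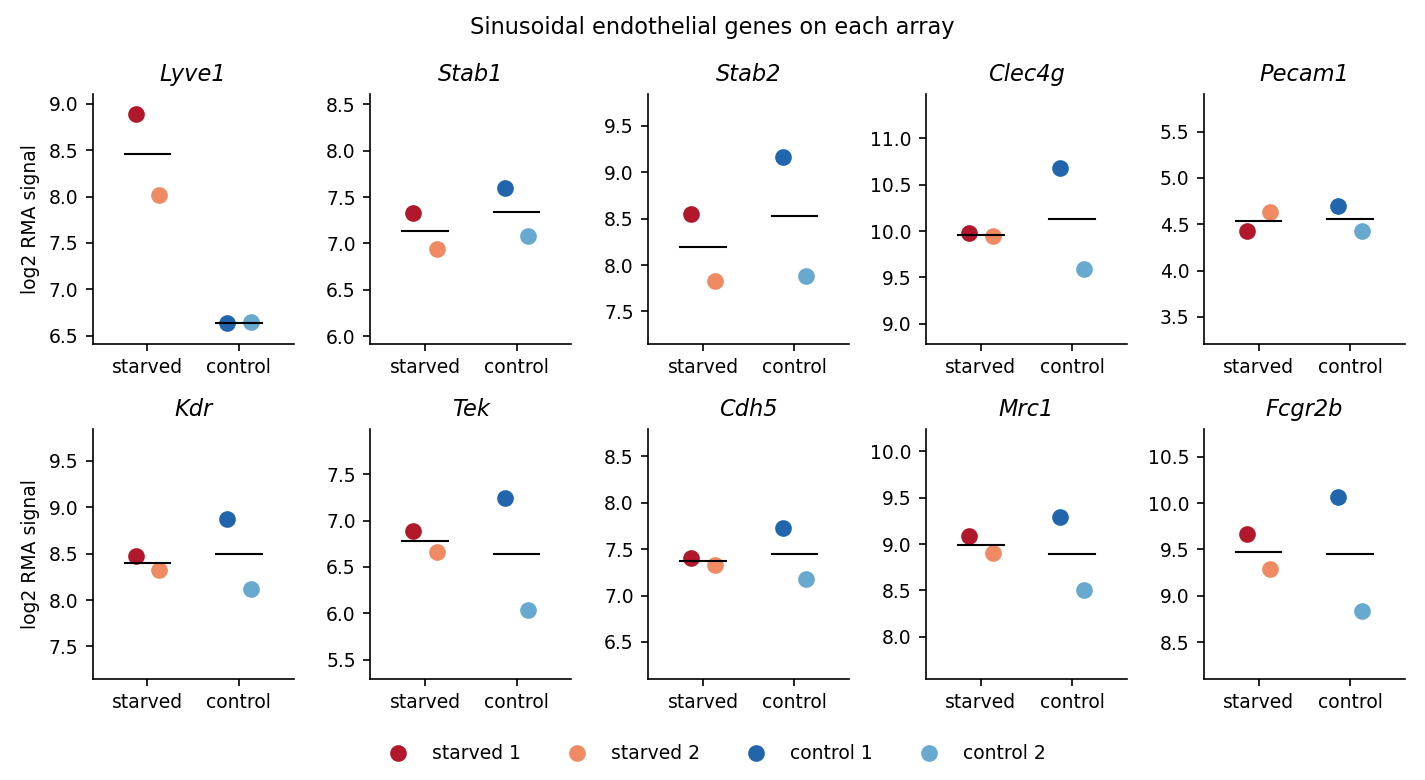
The log2 RMA signal of each of the 10 genes is plotted on each array, with starved livers on the left and control livers on the right of each panel, and bars mark the mean of each group. All panels span the same range of log2 units; the Lyve1 points of starved livers lie at 8.89 and 8.02 above both control points at 6.64, while in the other 9 panels control 1 is the highest point.

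The 9 other genes had a common order instead. In all 9 both starved arrays lay below control 1 (37.7% of all genes did so), and in all 9 control 1 was brighter than control 2 (55.7% of all genes). In 6 of the 10 genes, Clec4g, Kdr, Tek, Cdh5, Mrc1 and Fcgr2b, both starved arrays lay between the control arrays, as in 15.6% of all genes. Lyve1 was the only gene of the 10 with both starved arrays above both control arrays, a pattern of 21.4% of all genes, and in 0 of the 10 were both below, against 20.9%. Because these genes were chosen with this contrast known, nothing is read from the counts.

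Stab2, a scavenger receptor that takes up hyaluronan and other matrix fragments, had the widest gap between control arrays. Its signal was 8.55 and 7.83 in starved livers, against 9.17 and 7.88 in control livers, and the groups overlapped. The change was -0.33, smaller than the 1.29 between the control mice. Stab1, its relative, which binds modified lipoproteins and matrix proteins, had 7.33 and 6.94 in starved livers, against 7.59 and 7.08 in control livers. Its groups overlapped too, with a change of -0.20. For both stabilins starved 2 was lower than both control arrays and starved 1 lay between them.

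Fcgr2b encodes the inhibitory receptor for the Fc part of IgG, which clears small immune complexes in the sinusoids. Its signal was 9.66 and 9.29 in starved livers, against 10.07 and 8.84 in control livers, a change of 0.02. Its 4 probe sets, of which 3 derive from the same record, gave changes of 0.0043 to 0.06 and gaps between control 1 and control 2 of 0.72 to 1.23. The dimmest of them had 7.93 and 7.96 in starved livers, against 8.40 and 7.46 in control livers, and all 4 placed the starved arrays between the controls. Mrc1, the mannose receptor, which takes up glycoproteins and collagen fragments, had 9.09 and 8.90 in starved livers, against 9.29 and 8.50 in control livers, a change of 0.10 beside a control gap of 0.79. In both genes the starved values lay inside the range of the controls. Clec4g, the lectin of liver and lymph node sinusoidal endothelium also called LSECtin, had 9.98 and 9.94 in starved livers, against 10.68 and 9.59 in control livers, a change of -0.17. The starved arrays were close together, 0.04 apart, while the control arrays were 1.09 apart. A second Clec4g probe set was dim and flat, at 5.32 and 5.32 in starved livers, against 5.21 and 5.34 in control livers, and did not show the gap.

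Among receptor and junction genes shared by all endothelium, 3 of 4 placed both starved arrays between the controls. Tek, the receptor for angiopoietins, had 6.89 and 6.66 in starved livers, against 7.25 and 6.04 in control livers, a change of 0.13 beside a control gap of 1.21. Kdr, the main signalling receptor for vascular endothelial growth factor (VEGF) in endothelium, had 8.47 and 8.33 in starved livers, against 8.88 and 8.12 in control livers, a change of -0.10. Against control 1 alone the Kdr change was -0.48 and against control 2 alone 0.28. Cdh5, the cadherin of endothelial junctions, had 7.41 and 7.33 in starved livers, against 7.73 and 7.18 in control livers, a change of -0.08. Its other probe set, with 4.54 and 4.67 in starved livers, against 4.59 and 4.86 in control livers, and the single Pecam1 probe set were dim, below the lower quartile of the signals of every array. Pecam1, an adhesion protein of endothelial junctions, had 4.43 and 4.63 in starved livers, against 4.69 and 4.43 in control livers, and carries little information here. Its arrays spanned a narrow range, with a gap of 0.26 between the control mice.

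Promoters are shown for the 4 genes whose control arrays differed by more than 1 log2 unit, the widest gaps of the 10. Each line gives the 250 bases before the gene's start, 5′ to 3′ on the strand of the gene, from RefSeq on GRCm38.p6: Stab2 at chr10:87007943-87008192 (minus strand), Fcgr2b at chr1:170976072-170976321 (minus), Tek at chr4:94739039-94739288 (plus) and Clec4g at chr8:3720652-3720901 (minus). Capitals mark AGGAA on either strand (TTCCT on the other), which holds the core recognised by ETS factors, a family that includes regulators of endothelial genes; in Clec4g a pair of matches overlaps.
Stab2: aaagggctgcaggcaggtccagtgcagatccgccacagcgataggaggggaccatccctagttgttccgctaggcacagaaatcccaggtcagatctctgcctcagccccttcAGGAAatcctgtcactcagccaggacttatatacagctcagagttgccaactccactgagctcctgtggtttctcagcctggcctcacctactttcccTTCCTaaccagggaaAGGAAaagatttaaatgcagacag
Fcgr2b: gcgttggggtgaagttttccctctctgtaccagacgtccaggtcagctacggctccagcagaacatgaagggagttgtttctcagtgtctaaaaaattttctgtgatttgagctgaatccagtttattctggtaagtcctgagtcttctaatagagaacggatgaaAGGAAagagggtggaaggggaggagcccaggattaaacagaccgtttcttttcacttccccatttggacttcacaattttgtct
Tek: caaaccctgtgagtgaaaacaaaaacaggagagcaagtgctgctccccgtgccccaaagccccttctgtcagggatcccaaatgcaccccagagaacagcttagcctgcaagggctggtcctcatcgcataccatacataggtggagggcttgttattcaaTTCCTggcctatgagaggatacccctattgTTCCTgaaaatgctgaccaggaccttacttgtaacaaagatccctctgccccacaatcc
Clec4g: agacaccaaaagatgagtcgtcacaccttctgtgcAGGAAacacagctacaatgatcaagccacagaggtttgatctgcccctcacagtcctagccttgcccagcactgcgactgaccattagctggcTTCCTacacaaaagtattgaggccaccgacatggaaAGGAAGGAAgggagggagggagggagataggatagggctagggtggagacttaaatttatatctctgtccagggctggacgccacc
The RefSeq table held 7 of the 10 genes, without Lyve1, Pecam1 and Cdh5. AGGAA was found in 6 of these 7 windows, all but Kdr, and in 60.3% of the 32851 windows of the same length in the table. CCGGAA, another ETS core, which cannot be the same site as AGGAA, was in 1 of 7, that of Kdr, against 12.03% of all, and the GATA site AGATAA in 0 of 7, against 9.99%. The motifs were searched on both strands, and a match is a description of the letters only.

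With the starved arrays averaged, the sign of the 9 genes depended on the control mouse. For Stab1, Stab2 and Pecam1 the sign against control 2 also depended on the starved mouse, as the starved arrays lay on either side of control 2. The change in Tek, for example, was -0.47 against control 1 and 0.74 against control 2, that in Fcgr2b -0.59 against control 1 and 0.63 against control 2, and that in Stab2 -0.98 against control 1 and 0.31 against control 2. Clec4g gave -0.72 against control 1 and 0.37 against control 2, and Mrc1 gave -0.30 against control 1 and 0.49 against control 2. The smaller values were those of Stab1, -0.46 against control 1 and 0.06 against control 2, of Cdh5, -0.35 against control 1 and 0.19 against control 2, and of Pecam1, -0.16 against control 1 and 0.10 against control 2. Over the 9 genes the median difference was -0.47 against control 1 and 0.31 against control 2, and -0.08 against both. With Lyve1 included the 10 genes gave -0.47, 0.34 and -0.06 in the same order, beside medians over all 12393 genes of -0.01, 0.02 and 0.0031. The starved mean was below control 1 in 9 of the 9 genes, against 52.4% of all genes, and above control 2 in 9 of the 9, against 53.8%. The single changes ran from -0.33 for Stab2 to 0.13 for Tek, 6 of them below 0 and 3 above, and in 9 of 9 the gap between control mice was larger than the change, as in 54.6% of all genes. Nothing is read from these counts either, since the genes were chosen for this pattern. The median gap was 0.21 between starved mice and 0.79 between control mice, against 0.14 and 0.15 over all genes. The Lyve1 change exceeded the median of the 9 genes by 1.89.

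**Figure D2:**
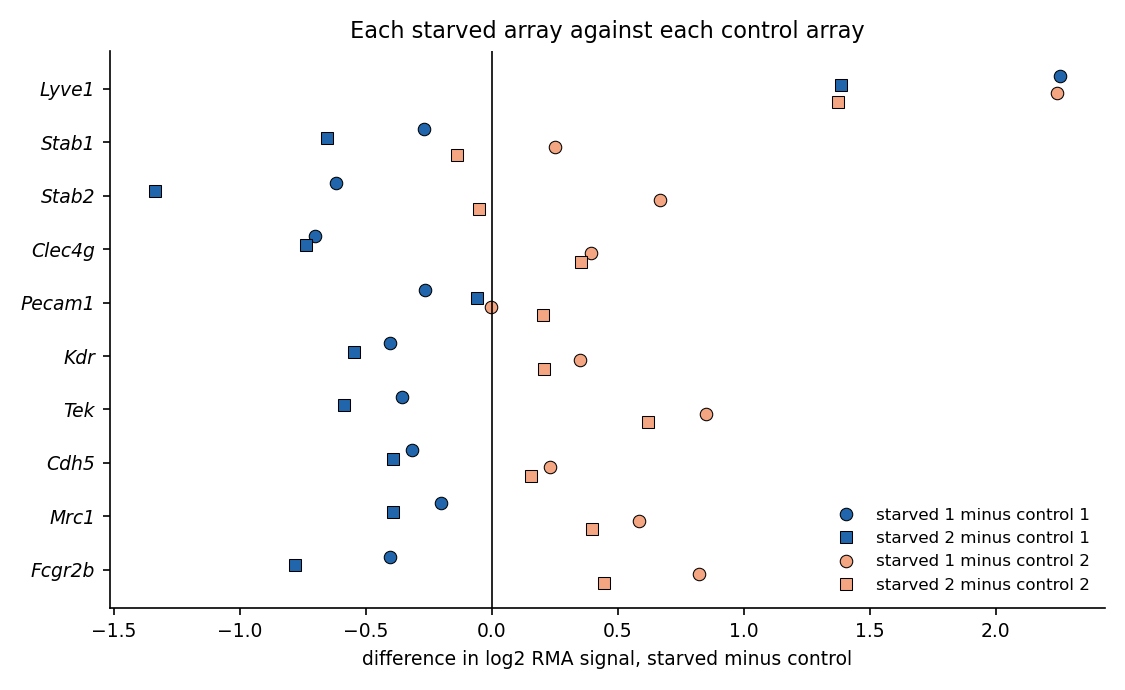
Each point is the difference in log2 RMA signal between a starved array and a control array, with 4 points for each of the 10 genes, blue against control 1 and orange against control 2. For Lyve1 all 4 differences lie between 1.38 and 2.25, while for the 9 other genes every difference from control 1 is negative and most of those from control 2 are positive.

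**Figure D3:**
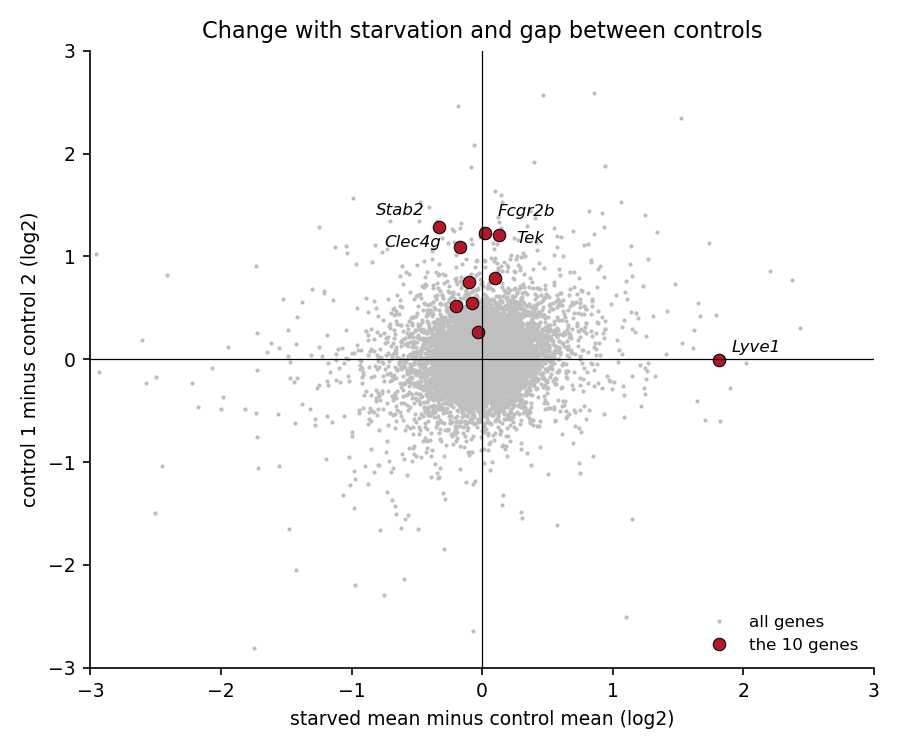
The change with starvation (horizontal axis) is set against the gap between control 1 and control 2 (vertical axis) for all genes in grey and the 10 genes in red, both in log2 units. Lyve1 lies to the right at a change of 1.81 and a gap near 0, Stab2, Fcgr2b, Tek and Clec4g lie near the vertical axis with gaps of 1.09 to 1.29, and 18 genes fall outside the axes.

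Other genes of the same cells, not among the 10, were tested with limma. The limma test called 8 of 12393 genes (0.0646%) at an adjusted p under 0.05, 4 higher and 4 lower. An unadjusted p under 0.05 was found in 1397 genes (11.3%). With trend and robust settings limma called 27 of the 12393 genes. Of the 27, 1 was an acute phase gene and 0 were in the endothelial, VEGF, hyaluronan, scavenger receptor, stellate, Kupffer and lymphatic lists. With an array left out the count was 59 without control 1, 14 without control 2 and 2 without starved 1. Of 21 other sinusoidal endothelial genes measured, 0 passed in limma and 0 had an unadjusted p under 0.05, and the median change was 0.02, or -0.21 against control 1 and 0.14 against control 2. Oit3, a protein enriched in these cells that was named after its values were seen, had 7.71 and 7.57 in starved livers, against 7.98 and 6.80 in control livers. Both its starved arrays thus lay between the controls, as in Tek and Kdr. That order was found in 9 of the 21 genes, against 15.6% of all genes. Gpr182, a scavenging receptor for chemokines, had both starved arrays below both control arrays. It had 7.61 and 7.33 in starved livers, against 8.50 and 7.69 in control livers, a change of -0.63 ± 0.27 (SE) with a limma adjusted p = 0.468. The transcription factor Maf had a change of 0.28 ± 0.12, the neonatal Fc receptor Fcgrt 0.30 ± 0.15 and the lysosomal protease Ctsl 0.28 ± 0.15 (SE), none past the test. Ctsl was bright, with 13.67 and 13.52 in starved livers, against 13.17 and 13.46 in control livers. A bulk sample does not show which cells made the Ctsl and Fcgrt RNA. Control 1 was the brighter control array in 18 of the 21, against 55.7% of all genes.

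Of 36 other genes of endothelium in general, 0 passed the limma test over all genes. At an unadjusted p under 0.05, 1 was higher and 2 were lower, beside 11.3% of all genes in either direction. Sox17, a transcription factor of arterial endothelium, had 6.36 and 6.35 in starved livers, against 6.09 and 5.98 in control livers (limma adjusted p = 0.401). The sphingosine-1-phosphate receptor S1pr1 had 8.37 and 8.45 in starved livers, against 8.81 and 9.44 in control livers (limma adjusted p = 0.330). The flow-responsive factor Klf2 had 6.88 and 6.57 in starved livers, against 7.37 and 6.99 in control livers (limma adjusted p = 0.442). In these 3, named for their small p, the groups did not overlap. Both starved arrays lay above both control arrays in 4 genes of the list and below both in 2, against 21.4% and 20.9% of all genes. They lay between the control arrays in 14 of 36, against 15.6% of all genes. The list's median change was 0.07, or -0.05 against control 1 and 0.21 against control 2. Control 1 was brighter than control 2 in 30 of 36, against 55.7% of all genes.

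Among 13 ligands and partners of Kdr and Tek, 0 passed the limma test. An unadjusted p under 0.05 was found for 1, Vegfb, beside 11.3% of all genes. Vegfb, a ligand of the receptor Flt1, had 6.62 and 6.75 in starved livers, against 7.29 and 7.07 in control livers, a change of -0.49 ± 0.13 (SE; limma adjusted p = 0.279). Vegfa, the ligand of Kdr, had a change of 0.23 ± 0.11, Flt1 0.30 ± 0.15, and the co-receptor Nrp1 -0.85 ± 0.42 with overlapping groups, none past the test. The median was 0.03, or -0.13 against control 1 and 0.10 against control 2.

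Hyaluronan is the ligand of Lyve1 and Stab2, and 12 other genes that bind, make or degrade it had a median change of 0.02. Of these 0 passed the limma test and 0 had an unadjusted p under 0.05, beside 11.3% of all genes. The hyaluronidase Hyal2 had a change of 0.15 ± 0.11 (SE) and the hyaluronan-binding protease Habp2 -0.24 ± 0.15. The proteoglycan Vcan had -0.28 ± 0.23 and the hyaluronan receptor Hmmr -0.15 ± 0.13. The main receptor elsewhere, Cd44, named after its values were seen, had 7.17 and 7.54 in starved livers, against 7.20 and 7.35 in control livers. The median of the 12 was -0.05 against control 1 and -0.02 against control 2.

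Of 20 other scavenger, lectin and Fc receptors, 0 passed the limma test. At an unadjusted p under 0.05, 2 were higher and 3 lower, beside 11.3% of all genes in either direction. Cd36, a receptor for fatty acids and modified lipoproteins, had 8.77 and 9.05 in starved livers, against 8.24 and 7.32 in control livers (limma adjusted p = 0.279). Marco, a macrophage scavenger receptor, had 7.31 and 7.49 in starved livers, against 6.45 and 6.94 in control livers (limma adjusted p = 0.279). Another, Msr1, had 8.01 and 7.83 in starved livers, against 8.82 and 8.38 in control livers (limma adjusted p = 0.27). In all 3 genes, named for their small p, the groups did not overlap. Both starved arrays lay above both control arrays in 7 genes of the list and below both in 4, against 21.4% and 20.9% of all genes. Ly75, an endocytic lectin of dendritic cells, had a change of -0.76 ± 0.18 (SE; limma adjusted p = 0.245) at signals of 3.64 to 4.75. The remaining lower gene, Lrp1, named beyond the 4 of smallest p, had a change of -0.55 ± 0.15 (SE, limma adjusted p = 0.2855). The median over the list was -0.01, or 0.08 against control 1 and 0.02 against control 2. Control 1 was the brighter control in 8 of 20, against 55.7% of all genes.

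Markers of neighbouring cells moved with the control arrays in different ways. Stellate cell genes shared the endothelial gap between the controls, with control 1 brighter than control 2 in 17 of 18, against 55.7% of all genes. The median deviation was -0.09 and 0.04 on the starved arrays, 0.25 on control 1 and -0.16 on control 2. Starved 1 was thus below starved 2, unlike in the sinusoidal and general endothelial lists. The median change of the stellate genes was -0.08, or -0.27 against control 1 and 0.06 against control 2. Their median signal was 6.71 and 6.82 in starved livers, against 6.97 and 6.69 in control livers. Kupffer cell and macrophage genes went the other way, with control 1 the brighter in 2 of 20, deviations of -0.09 and 0.0012 on the starved arrays, -0.13 on control 1 and 0.15 on control 2, and a median change of -0.07, or 0.08 against control 1 and -0.24 against control 2. Their median signal was 8.57 and 8.54 in starved livers, against 8.63 and 8.57 in control livers. This median was higher on control 1, unlike the deviations, which compare each gene with its own mean. Markers of lymphatic endothelium, which also makes Lyve1, had a median change of 0.07 over 7 genes, or -0.02 against control 1 and 0.22 against control 2. Prox1, their defining transcription factor, which hepatocytes also make, had 5.60 and 5.41 in starved livers, against 5.21 and 5.23 in control livers (limma adjusted p = 0.462). Pdpn, a lymphatic membrane protein named after its values were seen, had 5.26 and 5.37 in starved livers, against 5.33 and 5.24 in control livers. In each of these 3 lists 0 genes passed the limma test. At an unadjusted p under 0.05 there were 3, 2 and 0, beside 11.3% of all genes. The part of these cells in the values of the 10 genes was not tested.

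**Figure D4:**
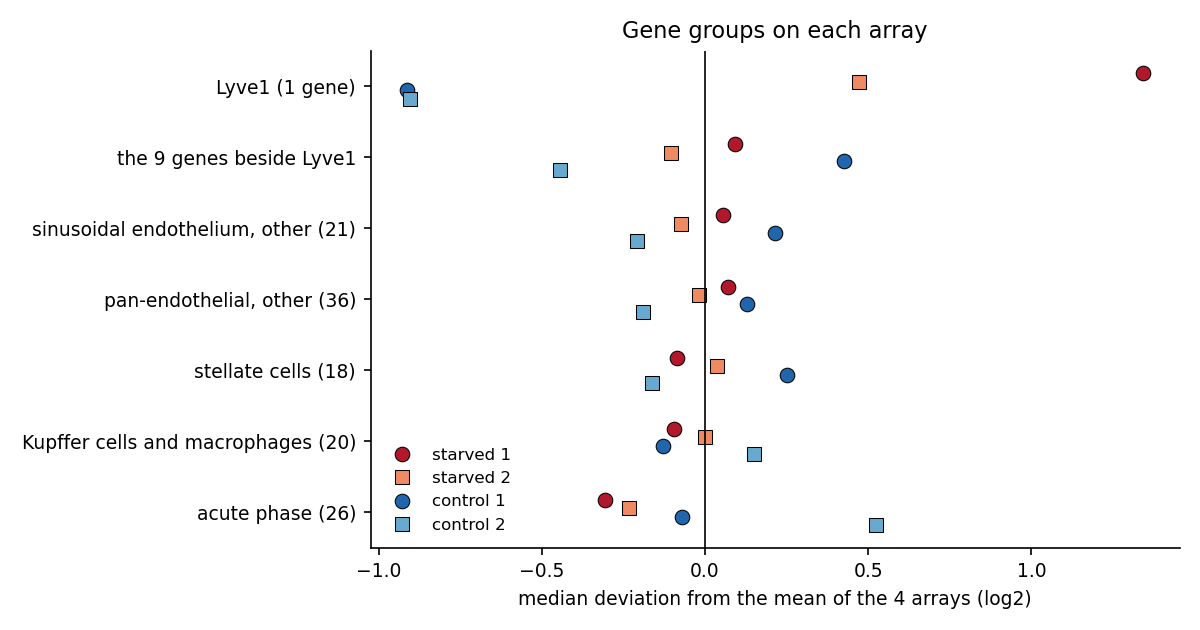
Each point is the median, over the genes of a group, of a gene's log2 signal on an array minus that gene's mean over the 4 arrays; the number of genes follows each name. Lyve1 separates starved from control arrays, the other endothelial groups and stellate cells run from control 2 on the left to control 1 on the right, and the Kupffer and acute phase groups have control 2 on the right.

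By a distance over the 4 arrays after each gene was centred on its own mean, the gene nearest to Lyve1 among 12392 was Apoa4, an apolipoprotein of triglyceride-rich particles, at a distance of 0.29 log2 units. Apoa4 had 13.74 and 13.16 in starved livers, against 11.41 and 11.69 in control livers. Next came Fkbp5, a cochaperone of steroid receptors, at 0.35, Cyp7a1, which starts the making of bile acids from cholesterol, at 0.43, Serpinb6b, a serine protease inhibitor, at 0.50, and Omd, a keratan sulfate proteoglycan, at 0.52. Fkbp5 had 11.90 and 11.17 in starved livers, against 10.07 and 9.65 in control livers. In all 5, as in Lyve1, starved 1 was the highest array. The choice by distance over these same arrays brings that order with it, so nothing is read from it. The 9 other sinusoidal genes lay at distances of 1.87 for Mrc1 to 2.34 for Stab2, which rank 4625 to 11713 of 12392. The set was chosen by these same values, so the ranks restate that choice and nothing is read from them. With 4 arrays the measure rests on few points and is given as a description.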

How the data were processed

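Liver RNA of 2 starved and 2 control mice was measured on 4 Affymetrix arrays. The deposited values are log2 signals that the authors computed by RMA (affy package), as the submitters' processing notes record; no version or setting is given in the sources used here. RMA equalises the distributions of the arrays, which hides a shift of all transcripts together. Detection calls were not used. Of 22690 probe sets, 64 controls were left out, 20380 had 1 gene symbol, 691 several and 1555 none, and the last 2 classes were not named. Older symbols were replaced by matching Entrez identifiers to RefSeq (GRCm38.p6), with 20351 matches. For each of 12393 genes the probe set of highest mean signal was used.

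Starved and control livers were compared with limma 3.58.1 in R 4.3.3 (lmFit and eBayes, two-sided, no covariate, Benjamini-Hochberg over all genes, threshold 0.05). A check on simulated data used independent noise for each gene. It therefore did not cover a gap shared by many genes, such as that between the control arrays. An exact permutation test of 2 against 2 cannot go below p = 0.333. The members and all gene lists were chosen from textbook knowledge with earlier results of these data known. The genes named were all 10 members, up to 4 genes of a list with the smallest p and the 5 genes nearest to Lyve1; others are marked. The lists share some genes. Alternatives covered normalization, filtering, the choice of probe sets, variance settings, a replicate block and each array left out.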

Additional observations from a re-analysis of the deposited data

How the results depend on the processing

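Over 11 alternatives the Lyve1 change of 1.81 ran from 1.38 without starved replicate 1 to 2.25 without starved replicate 2. It was 1.45 as a mean over both probe sets. Lyve1 was chosen for this rise, so nothing is read from its sign in the alternatives. The median of the 10 genes, -0.06, was 0.34 without control 1, -0.47 without control 2, -0.14 without starved 1, 0.0084 without starved 2 and 0.0085 over all their probe sets. The count of 8 genes past the limma test was 0 after a further quantile normalization, 27 with trend and robust settings, 13 with all probe sets as the unit, and 2 to 59 with 1 array left out (59 without control 1, 14 without control 2, 2 without starved 1). With the replicate number as a block it was 0; the numbers are not known to pair the mice, whose deviations from the group means correlated at 0.017. For the other lists, the sinusoidal median ran from -0.21 without control 2 to 0.14 without control 1 and the VEGF and angiopoietin median from -0.129 without control 2 to 0.124 without starved 2. The scavenger receptor median was 0.0224 to 0.0832 with 1 array left out, 0.0537 after dropping the dimmest 40% of genes and 0.0190 when probe sets were averaged. The hyaluronan median ran from -0.0525 without control 2 to 0.0200 without starved 1, and was 0.0802 after dropping the dimmest 40% of genes and -0.0292 over all probe sets. The causes were not tested. A lone array in a group was taken to vary as the pair in the opposite group did. The number of arrays limits the precision, and the median standard error of a change was 0.133.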

Other observations

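The 4 stellate cell genes with the smallest p did not have the starved arrays between the controls. A choice by small p favours genes whose groups separate, so nothing is read from this. In the whole list 6 of 18 genes had the starved arrays between the controls, against 15.6% of all genes. Col3a1, a fibrillar collagen, had 7.24 and 7.70 in starved livers, against 9.29 and 8.70 in control livers, a change of -1.53 ± 0.25 (SE; limma adjusted p = 0.117). Acta2, smooth muscle actin, had 6.17 and 6.16 in starved livers, against 6.90 and 6.50 in control livers, and Pdgfrb, a receptor for platelet-derived growth factor, had 6.64 and 6.56 in starved livers, against 7.04 and 6.88 in control livers (limma adjusted p = 0.328 and 0.371). The starved arrays lay below both control arrays in these 3 genes, as in 20.9% of all genes, and none passed the test. Ecm1, a secreted matrix protein, had both starved arrays above both control arrays, with 9.74 and 9.43 in starved livers, against 9.32 and 8.96 in control livers. Other genes of the list did have that order: Col1a2, another fibrillar collagen, named after its values were seen, had 8.13 and 8.18 in starved livers, against 8.38 and 7.87 in control livers.

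Among 36 genes of endothelium in general, 6 were brighter on control 2 than on control 1, and they were picked out after their values were seen. S1pr1 and Icam1, the adhesion molecule that inflammation induces, had the widest gaps. Icam1 had 7.27 and 6.72 in starved livers, against 7.04 and 7.82 in control livers.

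The median change was 0.12 over 8 cholangiocyte genes, 0.05 over 13 lymphocyte genes and -0.04 over 10 neutrophil genes. It was -0.03 over 4 erythroid genes and 0.00032 over 8 hepatocyte genes. In these lists 0 genes passed the limma test and 5 in all had an unadjusted p under 0.05, beside 11.3% of all genes. The neutrophil median was 0.21 against control 1 and -0.10 against control 2, and the cholangiocyte median 0.0025 against control 1 and 0.22 against control 2. The lymphocyte median was 0.09 against control 1 and 0.08 against control 2, the erythroid median -0.07 against control 1 and 0.0060 against control 2, and the hepatocyte median -0.03 against control 1 and 0.03 against control 2. The 26 acute phase genes had a median of -0.61, or -0.22 against control 1 and -0.86 against control 2. Both starved arrays lay below both control arrays in 17 of the 26 and above both in 0, against 20.9% and 21.4% of all genes. Of the 26, 0 passed the limma test and 8 were lower at an unadjusted p under 0.05, beside 11.3% of all genes in either direction. With trend and robust settings 1 of the 26 passed, beside 27 of all 12393 genes.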
